A study of Mus musculus with 9 samples.

Results

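The expression of 9 complement genes was followed through the culture of embryonic mouse lung cells as pneumospheres, floating spheres that grow from dissociated lung. The genes were taken by name from the table of read counts per gene, which holds 27179 gene IDs: C1ra, C1s1, C2, C4b, C3, Cfb, Cfp, Serping1 and Cd55. All 9 genes have an ID in the table, and 8 of them, all but C2, passed the filter on low counts that 14940 IDs passed. They are known as complement genes that fibroblasts can express, but these are bulk libraries, and the counts do not show which cells carried a transcript.

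The samples are 9 libraries of poly(A) RNA, with 3 each from day 3, day 7 and day 10 of culture. All come from embryonic lung of C57/B6 mice at embryonic day 11.5, with no treatment and no transgene named in the labels. In every group the lungs were dissociated with trypsin, and the cells were left on ordinary plastic for 1 hour. The cells still in the supernatant were then grown on low-attachment plates in 10% CO2 and 5% O2, in a medium with B27 supplement, ITS, bFGF, EGF and heparin. They were split on days 3 and 7, and the labels name no difference between the groups other than the day. Whether replicate libraries stem from different cultures or litters is not stated, so the p-values below measure only the spread between these samples, which may be technical.

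Complement is a cascade of secreted proteases that marks cells and microbes for removal. In the classical pathway C1q binds a target and the paired proteases C1r and C1s, which C1ra and C1s1 encode in the mouse, become active; C1s cleaves C4 and C2, and the resulting convertase cleaves C3, the central protein of the cascade. Factor B (Cfb) and properdin (Cfp) build and stabilise the C3 convertase of the alternative pathway, while the C1 inhibitor (Serping1) blocks C1r and C1s and the membrane protein CD55 (Cd55) speeds the decay of the convertases. The liver makes most of the circulating proteins in adults, and fibroblasts, macrophages and epithelia make some of them locally.

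Of the 9 genes, 6 lie on chromosomes 6 and 17. In the RefSeq annotation of GRCm38.p6, C1ra (Entrez 50909) lies on chromosome 6 at 124512621 to 124523440 on the plus strand. C1s1 (Entrez 50908) lies at 124530344 to 124542392 on the minus strand, so the 3′ ends of this pair face each other across 6903 bases. On the minus strand of chromosome 17, C2 (Entrez 12263, 34862602 to 34882100) ends 87 bases before Cfb (Entrez 14962, 34856374 to 34862514) starts, C4b (Entrez 12268) lies at 34728139 to 34743902, and C3 (Entrez 12266) lies further along at 57203967 to 57228136. The others, all on the minus strand, are Cfp (Entrez 18636, chromosome X, 20925454 to 20931555), Serping1 (Entrez 12258, chromosome 2, 84765360 to 84775444) and Cd55 (Entrez 13136, chromosome 1, 130429798 to 130465009).

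Promoter sequence was found in the RefSeq table for 5 of the 9 genes. The 250 bases before a listed start are shown for 3 of the genes whose level rose during culture, C3, C1s1 (the further upstream of its 2 listed starts) and Cd55, to show what they do and do not share. All 3 are on the minus strand of GRCm38.p6, at chr17:57228137-57228386, chr6:124542360-124542609 and chr1:130462745-130462994, and are printed 5′ to 3′ with the start following the last base. For C1s1 and Cd55 the listed start lies inside the gene span given above, which runs on to 124542392 and 130465009. Part of the C1s1 window and all of the Cd55 window therefore lie within that span. Capitals mark a match to TTGCNNAA, the letters of a C/EBP-type element, on either strand.
C3: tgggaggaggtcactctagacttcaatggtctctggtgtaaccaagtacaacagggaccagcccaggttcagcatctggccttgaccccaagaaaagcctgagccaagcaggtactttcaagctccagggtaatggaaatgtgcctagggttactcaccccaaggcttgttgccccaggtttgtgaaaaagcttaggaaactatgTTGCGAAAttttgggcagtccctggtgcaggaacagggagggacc
C1s1: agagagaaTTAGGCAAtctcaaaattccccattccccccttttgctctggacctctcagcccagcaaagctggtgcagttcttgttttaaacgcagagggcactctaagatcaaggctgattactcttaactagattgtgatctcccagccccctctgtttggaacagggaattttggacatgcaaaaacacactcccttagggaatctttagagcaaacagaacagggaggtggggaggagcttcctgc
Cd55: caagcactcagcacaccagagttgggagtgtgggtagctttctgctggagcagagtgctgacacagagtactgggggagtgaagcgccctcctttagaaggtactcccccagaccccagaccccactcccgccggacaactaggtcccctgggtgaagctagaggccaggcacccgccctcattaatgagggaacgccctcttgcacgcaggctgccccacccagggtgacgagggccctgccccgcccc
The C3 window holds the match TTGCGAAA 45 bases before the start, and the C1s1 window holds TTAGGCAA, which reads as the element on the opposite strand, 242 bases before the start. Such a match is in 9.56% of the 32851 promoter windows of this length in the table. None of the 3 windows holds TATAAA (12.4% of all windows), TTCNNNGAA (STAT type, 7.02%), an NF-kappaB-type motif (1.41%) or an interferon response-type motif (2.98%) on either strand. The Cd55 window holds none of the 5 motifs and has 64.0% G and C, against a median of 52.4% over all windows. The other listed C1s1 start and the windows of C1ra and Cfp, which also rose, hold none of the 5 motifs, and 216 of the 250 bases of the C1ra window lie in annotated exons. A match is a run of letters and not a measured site.

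Library totals ran from 20716878 to 30466712 counts, and levels are given as CPM, the usual depth-scaled count unit, taken over a library's tested genes after TMM scaling. At this depth a count of 0 allows up to 3 counts, or 0.0985 to 0.145 CPM, counting error only. Day 3 replicate 2 stands apart in having 6.79% of its counts on 1 ID without a name, against 0.169% to 0.515% in the other libraries. The 10 fibroblast markers (such as Col1a1, Pdgfra and Dcn) summed to 14577 to 16323 CPM on day 3, 28165 to 33713 on day 7 and 43195 to 48745 on day 10. All 10 were called higher on day 10 than on day 3, where 29.5% of all tested genes were called higher and 27.2% lower. Erythroid markers summed to 1062 to 1265 CPM on day 3, 7.20 to 8.23 on day 7 and 1.34 to 2.96 on day 10, and mesothelium markers to 60.4 to 80.5, 32.6 to 38.0 and 15 to 26.0. The part of these shifts in the changes below was not tested. The 14 leukocyte markers summed to 13.6 to 24.0 CPM on day 3 and 8.68 to 12.1 on day 10, with none at 0. Of the lung epithelium markers, which summed to 1.13 to 1.94 CPM on day 3 and at most 0.32 on day 10, Nkx2-1, Foxa1 and Shh were at 0 in every library. Fewer cells of a type and less RNA per cell cannot be told apart in these libraries.

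The complement genes covered 3 orders of magnitude in level. Per kilobase of exon, the scale on which genes can be compared, C1s1 led on day 10 with 66.7 ± 29.9 CPM per kilobase (SD, n = 3). C1ra (15.7 ± 6.37) and Serping1 (15.6 ± 3.48) followed with overlapping ranges, then Cfp (5.71 ± 1.71), which was below both in every library. Cd55 (0.767 ± 0.237) and Cfb (0.690 ± 0.120) overlapped, C3 (0.268 ± 0.126) was below them, and C4b (0.0565 ± 0.0698) and C2 (0.0483 ± 0.0262) overlapped at the bottom. On day 3 the order was another one. Serping1 (5.58 ± 0.479) and C1s1 (4.77 ± 0.525) overlapped at the top, ahead of Cfp (3.56 ± 0.175), Cfb (0.950 ± 0.0975), C1ra (0.431 ± 0.106) and Cd55 (0.122 ± 0.00734), and C2, C4b and C3 overlapped between 0.0479 and 0.0539. The C1s1 transcript alone made up 30.6% ± 1.5 of the summed per-kilobase level of the 9 genes on day 3, 67.2% ± 2.14 on day 7 and 61.6% ± 9.73 on day 10. C1s1, C1ra and Serping1 were above C4b and C2, whose proteins C1s cleaves, in every library. The full exon length was used for every gene. Between genes, these levels therefore depend on how reads shared with other genes were counted, which is not given.

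**Figure D1:**
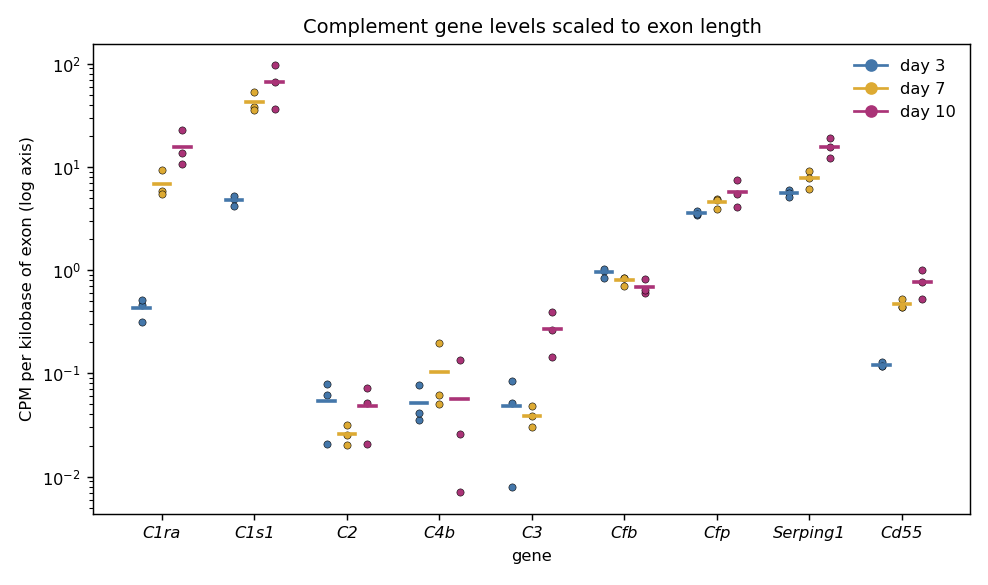
Level of each complement gene in CPM per kilobase of exon on a log axis, with a point for each library and a bar for the mean of the 3 libraries of a day. C1s1 reached a mean of 66.7 on day 10, while C2, C4b and C3 stayed under 0.4 in every library.

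From day 3 to day 10, 6 of the 8 tested genes rose, C1ra, C1s1, C3, Cd55, Serping1 and Cfp, and none fell. Among all 14940 tested genes, 29.5% were called higher and 27.2% lower in this comparison, at an adjusted p under 0.05 in edgeR's quasi-likelihood test with Benjamini-Hochberg adjustment over all tested genes. The median log2 change was 1.96 over the 8 genes and 0.00 over all tested genes. From day 3 to day 7 the calls were C1ra, C1s1 and Cd55, all higher, where 22.8% of all genes were called higher and 19.0% lower. From day 7 to day 10 they were C1ra, C3 and Serping1, all higher, where 4.41% were called higher and 4.10% lower. With library size alone in place of TMM, the split of all calls for this step went from 659 higher and 612 lower to 437 higher and 675 lower. The 3 comparisons share libraries and are not independent of each other, and their steps span 4 and 3 days.

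**Figure D2:**
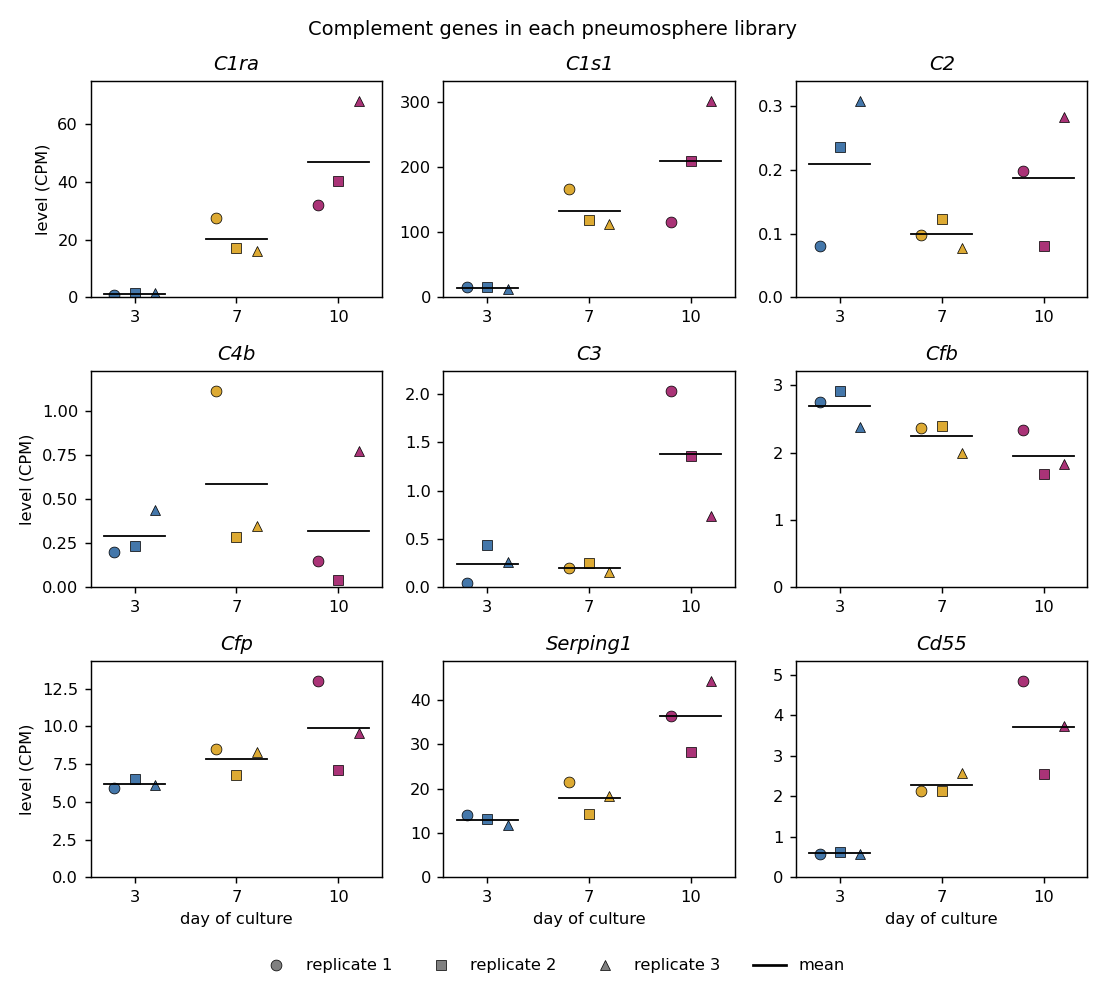
Level in CPM of each of the 9 complement genes against day of culture, 1 panel per gene with its own axis from 0. Symbols are the 3 libraries of a day and lines their means. C1ra, C1s1, Cd55, Cfp and Serping1 are above every day 3 library by day 7, C3 only by day 10, and C2 and C4b overlap between days.

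The C1 protease genes had the largest rises of the 9. C1ra stood at 0.930, 1.38 and 1.54 CPM in the day 3 libraries (replicates 1, 2 and 3), at 27.6, 17.3 and 16.2 on day 7, and at 31.9, 40.3 and 68.2 on day 10. No day overlapped another. C1ra rose by 3.99 on the log2 scale to day 7 (SE 0.38, edgeR adjusted p = 4.98e-05) and was 36.5-fold higher on day 10 than on day 3 (log2 change 5.19, SE 0.38, adjusted p = 5.41e-06). Its further rise of 1.20 from day 7 to day 10 (SE 0.29, edgeR adjusted p = 0.0381) is less secure. That call ended in 12 of 18 alternative analyses, among them library size alone (adjusted p = 0.051), no filter (0.086), the replicate block (0.067), a fit of only those days (0.094) and leaving out any 1 library other than day 7 replicate 1 or day 10 replicate 1 (up to 0.151 without day 7 replicate 2).

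C1s1, whose protein cleaves C4 and C2, was the most abundant of the 9 at each later time. It stood at 15.5, 16.3 and 13.1 CPM on day 3, 167, 118 and 112 on day 7, and 115, 209 and 302 on day 10. Every later library was above every day 3 library, while days 7 and 10 overlapped. The log2 change was 3.15 to day 7 (SE 0.33, edgeR adjusted p = 8.71e-05) and 3.80 from day 3 to day 10 (SE 0.34, adjusted p = 1.57e-05). From day 7 to day 10 it was 0.66 (SE 0.29, edgeR adjusted p = 0.199), past the threshold only without day 10 replicate 1 (0.95, adjusted p = 0.026).

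For both proteases the second step differed from the first. The difference, second step minus first, was -2.79 on the log2 scale for C1ra (SE 0.55, edgeR adjusted p = 0.0154). For C1s1 it was -2.49 (SE 0.50, edgeR adjusted p = 0.0171). On the log2 scale, most of the rise of both genes thus fell between days 3 and 7, the step that spans more days. In CPM this held for C1s1, with means of 14.9, 132 and 209 on days 3, 7 and 10. It did not hold for C1ra, whose means of 1.28, 20.4 and 46.8 CPM gained more in the second step. Of the 8 tested genes, C1ra and C1s1 were the 2 whose log2 steps differed, where 8.03% of all tested genes differed, in either direction. Both calls rest on day 7 replicate 1: without it the adjusted p was 0.065 for C1ra and 0.083 for C1s1. The C1s1 call also ended without day 7 replicate 2 (0.052) and with no filter (0.063).

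Within day 10, C1ra and C1s1 were both highest in replicate 3. Mki67, a marker of dividing cells chosen here after its values were seen, was lowest in that library, at 162 CPM against 409 and 306 in replicates 1 and 2, and Aurkb, a mitotic kinase gene, was at 18.2 against 40.8 and 41.7. Likewise, on day 7 C1ra and C1s1 were highest in replicate 1, where Mki67 was lowest, at 450 CPM against 614 and 677. On day 3 this did not hold: Mki67 was lowest in replicate 3 (753 CPM against 792 and 809), where C1s1 was lowest and C1ra highest. The part of cell division in the protease levels was not tested. Without day 10 replicate 3, the log2 change from day 3 to day 10 was 4.82 for C1ra and 3.44 for C1s1, and both stayed called.

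C1ra and C1s1 each have a near copy in the genome, and how the authors' counting treated shared reads is not given in the sources used here. Of the 50-base windows of the C1ra transcripts, 48.0% also occur in C1rb, and of those of C1s1, 21.8% occur in C1s2. The copies had few counts beside them. C1rb held 2.44% to 11.5% of the counts of the C1ra and C1rb pair in a library, and C1s2 held 0.779% to 2.94% of those of C1s1 and C1s2. The exons of C1s1 also overlap an antisense gene, Gm16567, by 576 bases in GENCODE.

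The balance between the 2 protease transcripts shifted. Per kilobase, C1s1 was 15.8, 11.2 and 8.08 times C1ra in the day 3 libraries, 5.74, 6.52 and 6.58 times on day 7, and 3.44, 4.94 and 4.22 times on day 10. No day overlapped another, and each pair of days had p = 0.1 in a two-sided exact permutation test, the smallest that 3 against 3 libraries allow. The 2 proteases together, relative to Serping1, went from 0.870, 1.01 and 0.925 on day 3 to 6.80, 7.14 and 5.22 on day 7 (exact permutation p = 0.1), and stood at 3.04, 6.63 and 6.26 on day 10 (exact permutation p = 0.5 against day 7). By these values the protease transcripts were about level with those of their inhibitor on day 3. They were higher than them in all 6 later libraries, of which day 10 replicate 1 was lowest. How reads shared between genes were counted is not given, and these ratios depend on it. Of the 50-base windows, 50.8% for C1ra and 21.8% for C1s1 also occur in another gene, against 0% for Serping1.

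**Figure D3:**
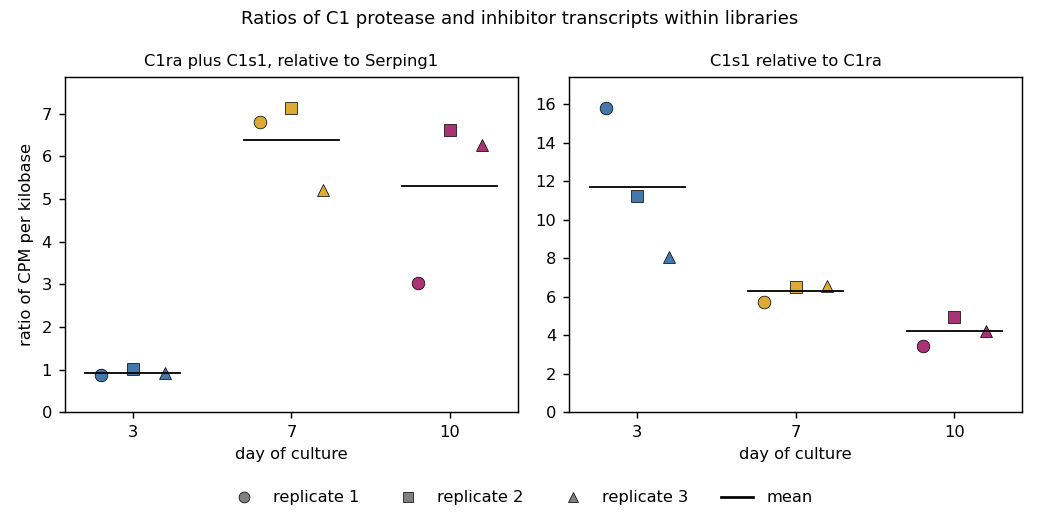
Ratios of levels per kilobase of exon within each library by day of culture, with symbols for libraries and lines for means. On the left the summed C1ra and C1s1 level over that of Serping1 is near 1 on day 3 and between 3.04 and 7.14 later. On the right the ratio of C1s1 to C1ra goes from a mean of 11.7 on day 3 to 4.20 on day 10.

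Of the central cascade genes, C3 rose from day 7 to day 10, C4b varied between libraries with no call, and C2 was too low to test. C3 had 1, 11 and 6 counts in the day 3 libraries, 6, 6 and 4 on day 7, and 41, 34 and 21 on day 10. In CPM these are 0.0405, 0.434 and 0.265, then 0.197, 0.247 and 0.156, then 2.03, 1.36 and 0.741. All 3 day 10 libraries were above all earlier ones, while days 3 and 7 overlapped. C3 rose by 2.74 on the log2 scale from day 7 to day 10 (SE 0.58, edgeR adjusted p = 0.0215) and by 2.43 from day 3 (SE 0.57, adjusted p = 0.00468), and its change from day 3 to day 7 was -0.30 (SE 0.72, adjusted p = 0.763). The call from day 7 to day 10 ended without any 1 of the day 7 libraries (adjusted p 0.064 to 0.074). The difference of its steps was 3.04 (SE 1.17, edgeR adjusted p = 0.160), so its 2 steps were not shown to differ.

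Library by library, the C3 values differ in a further respect. Day 3 replicate 2, with 11 of the 18 day 3 counts, was also the highest day 3 library for the 10 hepatocyte markers, which summed to 16.1 CPM there against 3.24 and 4.5 in replicates 1 and 3. Without that library the log2 change of C3 from day 3 to day 10 was 3.15. The 10 markers summed to 6.63 to 8.12 CPM on day 7 and, where C3 was highest, to 34.1, 12.8 and 21.1 CPM in the day 10 libraries. Nearly all of the day 10 sum was Trf, the transferrin gene, which rose by 2.43 on the log2 scale from day 3 to day 10 (SE 0.39, edgeR adjusted p = 0.000548). The other 9 markers, Alb and Afp among them, summed to 10.1 CPM in day 3 replicate 2, to 0.329 to 0.728 in the other 8 libraries and to 0.353 to 0.496 on day 10, with Ttr, Fgb, Serpina1a and Fabp1 at 0. The part of hepatocyte transcripts in the C3 values was not tested. C3 had no 50-base window in common with another annotated gene.

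C4b, which encodes C4, stood at 0.202, 0.237 and 0.441 CPM on day 3, 1.12, 0.288 and 0.351 on day 7, and 0.149, 0.0400 and 0.776 on day 10. The spread within days 7 and 10 was as large as any difference between days. No comparison passed the test (log2 change 0.23 from day 3 to day 10, SE 0.91, edgeR adjusted p = 0.840), and without day 10 replicate 3 the sign turned (-1.64, adjusted p = 0.179). Of its 50-base windows, 34.6% also occur in C4a, annotated by RefSeq as a transcribed pseudogene, which stood at 1.5 ± 0.386, 1.69 ± 0.654 and 1.80 ± 0.763 CPM on the 3 days.

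C2, the protease subunit of the classical convertase, had 2, 6 and 7 counts on day 3, 3, 3 and 2 on day 7, and 4, 2 and 8 on day 10, between 0.0780 and 0.309 CPM. It was too low for the filter. Fitted with no filter, its log2 change from day 3 to day 10 was -0.12 (SE 0.64, edgeR adjusted p = 0.918), so a difference was not detectable at this depth.

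The alternative pathway genes moved little. Cfb stood at 2.75, 2.92 and 2.38 CPM on day 3, 2.37, 2.39 and 1.99 on day 7, and 2.33, 1.68 and 1.84 on day 10, so the day 10 libraries were all below those of day 3. Its log2 change of -0.47 (SE 0.20) did not pass the test (edgeR adjusted p = 0.0708), but it did with library size alone (adjusted p = 0.045) and without day 10 replicate 1 (0.036). Of the 50-base windows of Cfb, 73.0% also occur in Gm20547, a transcript that joins Cfb and C2 in GENCODE and is not in the analysed table.

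Cfp, which encodes properdin, stood at 5.91, 6.51 and 6.13 CPM on day 3, 8.52, 6.75 and 8.31 on day 7, and 13, 7.12 and 9.56 on day 10. All later libraries were above those of day 3. Cfp rose by 0.68 on the log2 scale from day 3 to day 10 (SE 0.21, edgeR adjusted p = 0.0174), and that call ended without day 3 replicate 1 (0.64, adjusted p = 0.058) and without day 10 replicate 1 (0.44, adjusted p = 0.057). Properdin is also a product of myeloid cells. The 14 leukocyte markers, given above, did not sum higher on day 10 than on day 3. Of the 8 tested none was called higher and 1 was called lower, where 29.5% of all tested genes were called higher and 27.2% lower. The part of myeloid cells in the Cfp values was not tested.

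Both regulators among the 9 rose. Serping1, the inhibitor of C1r and C1s, stood at 14, 13.1 and 11.8 CPM on day 3, 21.4, 14.2 and 18.4 on day 7, and 36.4, 28.2 and 44.4 on day 10, with no overlap between days. It was 2.80-fold higher on day 10 than on day 3 (log2 change 1.48, SE 0.19, edgeR adjusted p = 0.000109). From day 7 to day 10 it rose by 1.01 (SE 0.18, edgeR adjusted p = 0.0127), a call that ended only in the fit of those days alone (0.055). From day 3 to day 7 its log2 change of 0.47 (SE 0.19) had an edgeR adjusted p of 0.0664, which passed in 5 of 18 alternatives, such as the replicate block (0.046) and the fit of those days alone (0.021).

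Cd55, whose membrane protein protects the cell that carries it, stood at 0.566, 0.631 and 0.573 CPM on day 3, 2.14, 2.14 and 2.58 on day 7, and 4.86, 2.56 and 3.74 on day 10. The 3 day 3 libraries were close together and below all others, and replicate 2 of day 10 fell within the day 7 range. The log2 change was 1.94 to day 7 (SE 0.28, edgeR adjusted p = 0.00047) and 2.64 from day 3 to day 10 (SE 0.28, adjusted p = 3.38e-05). From day 7 to day 10 it was 0.70 (SE 0.24, edgeR adjusted p = 0.103), past the threshold without day 10 replicate 2 (0.91, adjusted p = 0.036). Its exons overlap an antisense gene, Gm16083, by 102 bases in GENCODE.

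**Figure D4:**
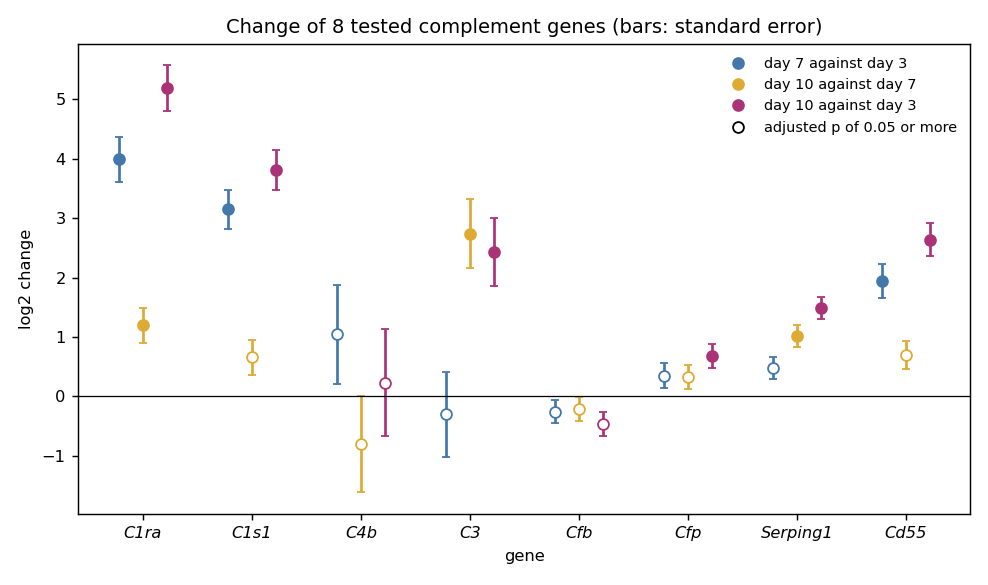
Log2 change of the 8 tested complement genes in each comparison of days, with standard errors from the fit as bars and open points where the adjusted p was 0.05 or more. The blue points of C1ra, C1s1 and Cd55 are at 1.94 or above for day 7 against day 3, and the yellow points of C3 (2.74), C1ra (1.20) and Serping1 (1.01) are the filled ones for day 10 against day 7.

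Other parts of the complement system were read from lists of 47 further gene names, of which 46 have an ID in the table and 19 passed the filter. The name without an ID is C5, whose mouse gene is also in the lists, as Hc. From day 3 to day 10, 11 of the 19 were called higher, 4 lower and 4 were not called, with a median log2 change of 0.84, where 29.5% of all tested genes were called higher and 27.2% lower. By role, all 5 tested genes of initiation rose, 1 of 3 further cascade genes rose, 5 of 7 further regulators rose and 1 fell, and 3 of 4 receptor genes fell.

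Among the genes of initiation, the near copies C1rb and C1s2 rose with the proteases, as did C1rl. C1rb went from 0.0683 ± 0.0460 to 1.82 ± 0.811 CPM between days 3 and 10 (log2 change 4.65, SE 0.52), C1s2 from 0.319 ± 0.0677 to 1.91 ± 0.609 (2.59, SE 0.32) and C1rl from 0.863 ± 0.164 to 2.39 ± 0.901 (1.47, SE 0.34). Because of the shared windows above, the values of C1rb and C1s2 are uncertain, and C1rb had only 5 counts over the day 3 libraries. A pair of collectin genes also rose: Colec11, a soluble pattern receptor that can start the lectin pathway, went from 4.93 ± 1.95 to 24.7 ± 20.8 CPM (2.34, SE 0.56), and Colec12, a membrane scavenger receptor, from 239 ± 2.07 to 605 ± 125 (1.34, SE 0.13). The 3 chains of C1q, the recognition part to which C1r and C1s bind, summed to 0.243, 0.316 and 1.01 CPM in day 3 replicates 1, 2 and 3. On day 10 they summed to at most 0.0353 CPM, with C1qa and C1qc at 0. The lectin pathway protease Masp1 had 20 counts over the day 3 libraries and 2 over those of day 10. The C1q chains and Masp1 did not pass the filter, so their changes were not tested.

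Late components were scarce. C8g, the small chain of C8, rose from 0.759 ± 0.291 to 1.38 ± 0.247 CPM (log2 change 0.85, SE 0.30, edgeR adjusted p = 0.0345). C7, part of the membrane attack complex, was at 0.706 ± 0.256, 0.635 ± 0.267 and 1.24 ± 1.35 CPM on the 3 days and was not called. Hc, the mouse gene of C5, had 8, 15 and 33 counts over the libraries of days 3, 7 and 10 and was below the filter.

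Clu, which encodes clusterin, an inhibitor of the terminal complex, rose from 3.22 ± 0.636 to 7.26 ± 0.363 and 22.2 ± 6.50 CPM. Its second step was 1.61 on the log2 scale (SE 0.21, edgeR adjusted p = 0.00379). The membrane regulators rose less: Cd46 from 0.958 ± 0.250 to 1.83 ± 0.407 CPM (0.95, SE 0.26), Cd59a from 2.41 ± 0.527 to 3.82 ± 0.327 (0.67, SE 0.19) and Cr1l, the rodent regulator also called Crry, from 24.3 ± 2.47 to 33.4 ± 1.41 (0.46, SE 0.09). Vtn, the gene of vitronectin, was called higher, with 3 counts over the day 3 libraries and 52 over those of day 10. Susd4, a membrane protein with complement control domains, fell from 8.85 ± 1.11 to 3.78 ± 0.456 CPM (-1.22, SE 0.16), and Csmd2, another such protein, went from 1.28 ± 0.154 to 0.692 ± 0.467 CPM without a call.

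Of the 4 tested receptor genes, 3 fell and Cd93 was not called. C3ar1, the receptor of the C3a fragment, had 41 counts over the day 3 libraries and 2 over those of day 10, and Itgb2, the shared chain of the integrin receptors of C3 fragments, had 37 and 6; both were called lower. Both are mostly genes of myeloid cells. C1qbp, a mitochondrial protein that can bind C1q, fell from 80.2 ± 5.03 to 47.1 ± 2.65 CPM (-0.77, SE 0.08), and Cd93, an endothelial and myeloid surface protein, was at 8.21 ± 3.16 and 5.02 ± 2.77 CPM without a call. The endothelium markers summed to 181 to 220 CPM on day 3, 248 to 343 on day 7 and 128 to 143 on day 10.

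**Figure D5:**
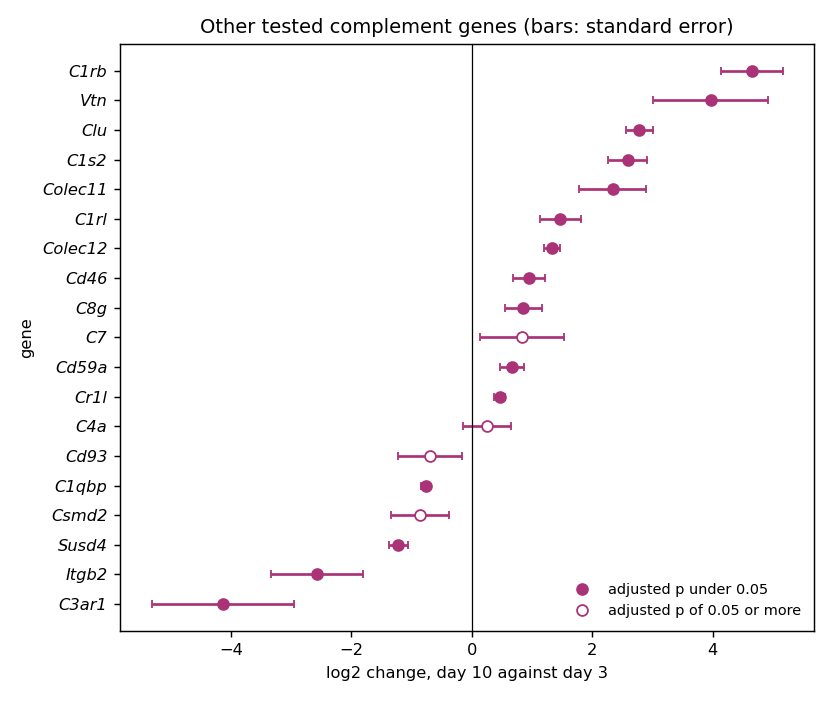
Log2 change from day 3 to day 10 of the 19 further complement genes that were tested, sorted by size, with standard errors as bars and open points where the adjusted p was 0.05 or more. C1rb (4.65) leads, and 11 genes were called higher and 4 lower. The fitted values of C1rb, Vtn, C3ar1 and Itgb2 rest on 5, 3, 2 and 6 counts over 1 of the days.

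Regulators known to act on complement genes were also read. Of 20 transcription factors and signalling genes of the acute phase response, 19 were tested, and 17 were called higher on day 10 than on day 3 and none lower, with a median log2 change of 0.70, where 29.5% of all tested genes were called higher and 27.2% lower with a median of 0.00. Cebpb, a C/EBP factor of the acute phase, stood at 8.37, 6.39 and 6.97 CPM on day 3, 32.8, 25.7 and 30.8 on day 7 and 41.8, 37.7 and 54.8 on day 10 (2.63 from day 3 to day 10, SE 0.17, edgeR adjusted p = 1.68e-06). The days did not overlap. Nr1h3, the nuclear receptor LXR alpha, rose from 2.33 ± 0.547 to 19.7 ± 5.65 CPM (3.08, SE 0.26). Smaller rises were those of Cebpd (7.51 ± 0.897 to 20.6 ± 3.16), Cebpa (6.26 ± 0.303 to 15.2 ± 0.980) and Relb, an NF-kappaB subunit (14.1 ± 0.455 to 33.8 ± 3.22). Hnf4a, a liver factor, was too low to test.

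Of 20 cytokines and receptors, 12 were tested, 10 were called higher from day 3 to day 10 and none lower, against 29.5% higher and 27.2% lower among all tested genes. Il6ra, the interleukin-6 receptor, went from 0.0946 ± 0.0438 to 0.742 ± 0.240 CPM (log2 change 2.89, SE 0.46). Among genes that reached 10 CPM, those called with a change of at least 2-fold were Tnfrsf1b, a TNF receptor (3.17 ± 0.924 to 32.0 ± 14.5 CPM, log2 change 3.34, SE 0.38), Il1r1, the interleukin-1 receptor (49.7 ± 1.93 to 169 ± 17.2, 1.77, SE 0.08), Osmr, the oncostatin M receptor (19.0 ± 4.15 to 60.5 ± 18.7, 1.67, SE 0.23), and the interferon gamma receptor genes Ifngr2 (32.0 ± 1.36 to 94.7 ± 18.0, 1.57, SE 0.13) and Ifngr1 (63.6 ± 4.78 to 173 ± 16.7, 1.45, SE 0.09). The matching ligand genes Il6, Il1a, Il1b, Tnf, Ifng and Osm did not pass the filter, and neither did the cytokine gene Lif or the interferon gene Ifnb1. Il6 had 0 counts on day 3, 11 on day 7 and 6 on day 10. The relation of any of these to the complement genes was not tested.

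The 9 genes did not share 1 time course. The distance between 2 genes was taken as the root mean square difference over the 9 libraries of their log2 CPM, each centred on its own mean, as a description with no test. Among the tested members the closest pair was Cfp and Serping1 (0.42), C1ra and C1s1 were 0.61 apart, and C3 was 1.79 from C1ra. The distance is not scaled to the size of a change, so genes that changed little lie close to each other. Cfb and Cfp were 0.48 apart, with log2 changes of -0.47 and 0.68 from day 3 to day 10. C1s1 ranked 34 among the 13365 genes compared with C1ra, all those tested whose mean reached 1 CPM, and C1ra ranked 137 among those compared with C1s1. The genes nearest to Serping1 were Aatk (0.13), Col4a5 (0.16), Ptges (0.16), Gria3 (0.18) and Tapbpl (0.18). Those nearest to C3 were farther off, with Trf, the transferrin gene, first (0.59), followed by Fez1, Cgref1, Amz1 and Mamld1 (0.72 to 0.73). For C4b, the nearest were Rab37, Acer2, Ache, Egln3 and Rps27a-ps3 (0.53 to 0.59). Chosen after the values were seen, the nearest to C1ra were Fmo2 (0.27) and Col15a1 (0.28), and the nearest to C1s1 was Itih5 (0.23), a gene of a hyaluronan-binding inhibitor chain.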

How the data were processed

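The deposited values are raw counts of reads per Entrez gene ID, from featureCounts and mm10 per the submitters' processing notes. Not given in the sources used here were the aligner, annotation, strand setting and treatment of shared reads. All 9 columns matched 1 sample by name. Of 27179 IDs, 25275 were named from RefSeq (GRCm38.p6), 18 from GENCODE M21, and 1886 stayed unnamed. Counts were filtered (filterByExpr), scaled by TMM and fitted over all 9 libraries with edgeR 4.0.16 (robust quasi-likelihood F test, R 4.3.3; biological coefficient of variation 0.146). Standard errors are the absolute log2 change over the square root of F. Ratios were tested by exact permutation (scipy 1.17.1). Replicate libraries differed by more than counting noise (chi-square per degree of freedom 8.05 to 127). Shared windows and exon lengths came from GENCODE M21. The members and lists were chosen with earlier results of these data known. The named genes are the 9 members, other listed complement genes that averaged 1 CPM or more on any day, and listed regulators, cytokines and receptors called from day 3 to day 10 with at least 10 CPM on either day and a 2-fold change. C1q chains, Masp1, Hc, Vtn, C3ar1, Itgb2, Hnf4a, Il6ra, Trf and the cytokines below the filter are outside that rule and were named after their values were seen. Results of some listed genes are not reported here, and those genes are left out of the list counts. Alternatives were other size factors, library size alone, other filters, DESeq2 1.42.0, a replicate block, fits of 2 days, and leaving out libraries.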

Additional observations from a re-analysis of the deposited data

Results flagged for a closer look

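For 3 complement genes the change from day 7 to day 10 differed from the change from day 3 to day 7 by the edgeR test of the difference itself. They are 2 of the 8 tested members and 1 of the 19 other complement genes tested. Among all tested genes 8.03% differed, in either direction. The second step minus the first, on the log2 scale, was -2.79 for C1ra (adjusted p = 0.0154), -2.49 for C1s1 (adjusted p = 0.0171) and -1.84 for C1s2 (adjusted p = 0.0497). All 3 rose from day 3 to day 7. The libraries behind C1ra and C1s1 are named beside those results, and the steps span 4 and 3 days. For C1s2, close to the threshold, the alternatives are not given here. It had 23 counts over the day 3 libraries, and 21.8% of the 50-base windows of C1s1 also occur in it.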

How the results depend on the processing

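The counts of called genes, over all genes and among the members, and the log2 changes of the members were recomputed under up to 18 alternatives. For the other listed genes and the ratios no alternatives are given here. Of 556 recomputed log2 changes of the tested members, 525 kept their sign and side of the threshold or, where never called, stayed uncalled, 22 lost the call, 9 gained it and none was called with the opposite sign. The calls from day 7 to day 10 moved the most. Over all genes, 1271 were called for that step, 2114 by DESeq2, 290 with only the 2 groups compared and 304 to 1548 when each library was left out in turn, lowest without day 7 replicate 2. Of the members, 3 were called for it, 1 with only the 2 groups compared and 1 to 4 when a library was left out. The 2 members whose steps differed became 1 with no filter and 0 to 2 when a library was left out, with 0 without day 7 replicate 1. The members called from day 3 to day 10 numbered 6, and 5 to 6 when a library was left out. Replicate numbers are shared between days, but no label ties them to a common source: the deviations of same-numbered libraries correlated at -0.07 to 0.43 across genes, not all above 0.1, so they were not taken as pairs. With the replicate block, 6319, 1374 and 8565 genes were called for day 7 against day 3, day 10 against day 7 and day 10 against day 3, against 6240, 1271 and 8473 without it. C3 and C4b gave no value under the filter of 1 CPM in 3 libraries, nor did C4b in fits of 2 days, nor C3 in that of days 3 and 7. Depth limits C2, C4b and C3, each with under 50 counts in every library.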

Other observations

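Serping1 belongs to the serpins, a family that consists mostly of protease inhibitors. Of 13 listed serpin genes other than Serping1, 7 were tested, and 6 were called higher on day 10 than on day 3 and none lower in edgeR's quasi-likelihood test, where 29.5% of all tested genes were called higher and 27.2% lower. The median log2 change of the 7 was 1.09, against 0.00 over all tested genes. Serpinf1, which encodes PEDF, rose by 3.27 on the log2 scale (SE 0.12), and Serpini1, which encodes neuroserpin, by 2.24 (SE 0.17). Serpina3g was the tested gene without a call (-0.35, SE 0.50, adjusted p = 0.579), although it was called lower from day 3 to day 7 (-2.05, adjusted p = 0.0152). Serpinf1 rose by 2.36 from day 3 to day 7 and by 0.91 from day 7 to day 10. Serpins of the liver in the list, such as Serpina1a, Serpinc1 and Serpind1, did not pass the filter. These serpins were named after their values were seen, and the list was not tested as a set.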
